A study of Homo sapiens with 2 samples.

Results

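Nuclear genes for subunits of the 5 complexes of oxidative phosphorylation were examined in the human colorectal carcinoma line HCT116. The genes were chosen by symbol alone: the NDUF genes of the A, B, C, S and V series (complex I), SDHA to SDHD (complex II), 8 UQCR genes (complex III), 17 COX subunit genes (complex IV) and the ATP5 genes (complex V). This gave 83 of the 51640 gene symbols in the series, carried by 88 table entries, because 5 symbols (NDUFA7, NDUFB8, SDHD, UQCR11 and ATP5S) each have 2. RNA was sequenced in paired-end libraries from 2 biological replicates of a single group, HCT116 grown in DMEM with fetal bovine serum, penicillin and streptomycin, with no treatment named in the labels. The libraries are named PF and PJ, letters that the labels do not explain. The unit is FPKM, a fragment count divided by transcript length and by the mapped fragments of its library, and each estimate carries a deposited lower and upper 95% bound that describes the estimate within its library only. Pairs of values below are in the order PF, PJ. With 1 group of 2 libraries there is nothing to test between groups, and no p-value was computed. Differences between PF and PJ are differences between these 2 libraries, in which culture, preparation and sequencing cannot be told apart.

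The respiratory chain sits in the inner mitochondrial membrane. Complexes I and II take electrons from NADH and succinate, complex III passes them through cytochrome c to complex IV, which reduces oxygen, and complex V uses the proton gradient built by complexes I, III and IV to make ATP. Complexes I, III, IV and V are built from subunits of both the nuclear and the mitochondrial genome, whereas all subunits of complex II are nuclear. In several positions of complex IV a widely expressed subunit has a paralog used mainly in muscle, testis or lung. The transcription factor NRF1 and the ETS factor GABP (also called NRF2) are known regulators of many of these nuclear genes.

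Promoter sequences bear on 3 of the subunit pairs described below, in which one paralog was expressed and the other was not, and on SDHD, the one complex II gene whose window held both searched motifs. They are from RefSeq on GRCh38.p14 and comprise the 250 bases before the annotated start, 5′ to 3′ on the strand of the gene. Capitals mark matches to CCGGAAG (or CTTCCGG on the other strand), the core bound by ETS factors, and to CGCATGCG, the centre of the NRF1 motif, which reads the same on both strands. These 2 motifs cannot overlap. The windows are chr11:112086623-112086872 (plus strand) for SDHD, chr12:120437863-120438112 (plus) for COX6A1, chr16:31428361-31428610 (minus) for COX6A2, chr19:35648073-35648322 (plus) for COX6B1, chr19:55354720-55354969 (minus) for COX6B2, chr11:63974370-63974619 (plus) for COX8A and chr14:93346932-93347181 (plus) for COX8C.
SDHD: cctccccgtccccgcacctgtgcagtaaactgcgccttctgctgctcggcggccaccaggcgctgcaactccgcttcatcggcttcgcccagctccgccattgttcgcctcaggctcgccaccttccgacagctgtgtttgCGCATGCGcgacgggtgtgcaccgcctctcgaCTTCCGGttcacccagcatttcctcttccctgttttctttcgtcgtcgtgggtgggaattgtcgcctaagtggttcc
COX6A1: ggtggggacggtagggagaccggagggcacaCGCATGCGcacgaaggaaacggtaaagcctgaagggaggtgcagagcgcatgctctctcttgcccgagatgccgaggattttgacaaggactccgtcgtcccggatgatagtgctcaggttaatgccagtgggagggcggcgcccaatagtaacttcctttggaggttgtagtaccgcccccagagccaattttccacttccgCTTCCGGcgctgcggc
COX6A2: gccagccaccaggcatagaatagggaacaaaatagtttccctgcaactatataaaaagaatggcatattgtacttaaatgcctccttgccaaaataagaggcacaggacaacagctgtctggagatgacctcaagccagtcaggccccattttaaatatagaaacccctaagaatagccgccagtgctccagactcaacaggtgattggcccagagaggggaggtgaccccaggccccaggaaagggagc
COX6B1: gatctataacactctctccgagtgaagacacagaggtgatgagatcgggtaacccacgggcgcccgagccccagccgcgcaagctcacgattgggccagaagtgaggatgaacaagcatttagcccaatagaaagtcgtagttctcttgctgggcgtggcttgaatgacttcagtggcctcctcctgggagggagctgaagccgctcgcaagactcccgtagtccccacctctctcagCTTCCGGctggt
COX6B2: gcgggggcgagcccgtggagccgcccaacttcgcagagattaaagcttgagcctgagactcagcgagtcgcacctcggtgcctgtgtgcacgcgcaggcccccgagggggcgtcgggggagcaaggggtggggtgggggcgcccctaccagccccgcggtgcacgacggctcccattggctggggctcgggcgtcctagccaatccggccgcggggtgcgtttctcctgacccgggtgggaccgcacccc
COX8A: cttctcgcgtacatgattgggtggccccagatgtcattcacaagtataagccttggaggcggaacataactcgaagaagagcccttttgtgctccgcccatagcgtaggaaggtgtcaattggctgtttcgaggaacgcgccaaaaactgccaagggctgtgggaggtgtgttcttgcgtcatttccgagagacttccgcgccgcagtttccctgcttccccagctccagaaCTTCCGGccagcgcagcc
COX8C: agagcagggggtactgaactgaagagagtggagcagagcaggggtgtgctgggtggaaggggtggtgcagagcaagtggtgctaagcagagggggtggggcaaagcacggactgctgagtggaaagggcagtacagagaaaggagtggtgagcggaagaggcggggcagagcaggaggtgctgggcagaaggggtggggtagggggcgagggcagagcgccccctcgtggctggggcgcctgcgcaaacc

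The windows of COX6A1, COX6B1 and COX8A each held the ETS core once, close to the start, and those of COX6A2, COX6B2 and COX8C held neither motif. These pairs were picked for printing after their levels and matches had been seen, so the contrast is a description of these 7 windows. COX4I1, COX7A2 and COX7B, the expressed genes of the other pairs, were not among the genes with a match to either motif. Not every gene had a window. CG dinucleotides numbered 19 in the COX6A1 window and 1 in that of COX6A2, and 16 and 8 for COX8A and COX8C, but 14 for COX6B1 against 26 for the unexpressed COX6B2. Of the 83 genes, 66 matched entries in the promoter table, with 79 windows in all since some genes have several starts. The ETS core was found in 18 of the 79 windows (22.8%), against 8.52% of all 35116 promoter windows and 14.8% of the 13385 windows of symbols expressed in both libraries. The NRF1 centre was found in 10 of 79 (12.7%), against 1.73% of all windows and 3.0% of those of expressed symbols. Its 10 carriers were ATP5C1, ATP5G2, ATP5I, ATP5J, COX6A1, NDUFA5, NDUFB4, NDUFS6, NDUFS7 and SDHD. Extended by G before and C after, the NRF1 motif was left in 3 of 79 windows (3.80%), those of ATP5C1, NDUFB4 and SDHD. Its share was 1.03% of all windows and 1.71% of those of expressed symbols. This extended form was the one planned, and the shorter centre was an addition to the plan.

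Transcripts of 77 of the 83 genes were present at 1 FPKM or more in both libraries, and all 6 that were not are alternative subunits of complex IV. The share of all symbols at that level was 27.9%, and that of nuclear protein-coding symbols 57.3%. Every gene of complexes I (37 of 37), II (4 of 4), III (8 of 8) and V (17 of 17) passed, and 11 of 17 in complex IV. At 10 FPKM or more in both libraries there were 75 genes, and at 100 FPKM or more 44. The median position of the 77 among protein-coding symbols, ranked by mean FPKM, was the 96.9 percentile, and 69 of them lay above the 90th. No entry for these genes had status FAIL, which marks a failed estimate, and only ATP5L2 had status LOWDATA. Both estimates fell inside their deposited bounds for 59 of the 77. The 18 others include COX6A1, UQCRB, ATP5H, NDUFA10 and NDUFB5, and the levels of all 18 are less certain than their bounds imply. Of all symbols averaging at least 1 FPKM, 83.9% were within their bounds in both libraries, and among the 77 it was 76.6%.

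Summarised by complex, the median of the genes' mean FPKM was 217 for complex V (SD 35.2 between the libraries' own medians, n = 2), 173 for complex III (SD 36.1), 165 for complex IV (SD 34.4), 81.4 for complex I (SD 17.8) and 72.6 for complex II (SD 11.3). This order was the same in both libraries. Complexes III and IV differed by less than those SDs, as did complexes I and II, whereas complex V lay above complex III, and complex IV above complex I, by more. Every complex median was higher in PJ, so these SDs hold a shared difference and do not measure the error of a gap between complexes. The order depended on which genes were counted. Without genes with highly listed pseudogenes, described further on, complex II, with SDHB alone left, had a median of 139 FPKM. The same step put complex IV at 83.5, next to complex I at 81.4. That complex IV median still counted its 6 unexpressed paralogs, and so fell between its lowest expressed genes, COX7A2L (mean 72.0 FPKM) and COX7B (94.9). With these 6 paralogs left out and every expressed gene kept, complex IV had a median of 247 FPKM and stood first. It was above complex V by less than the SD of complex V. Within complexes I and V genes spread far more than the complex medians did: the expressed genes ran from 10.2 to 363 FPKM in PF for complex I, and from 1.36 to 731 for complex V, but only from 43.9 to 105 for complex II. In the plot of levels by complex these ranges can be followed gene by gene.

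**Figure D1:**
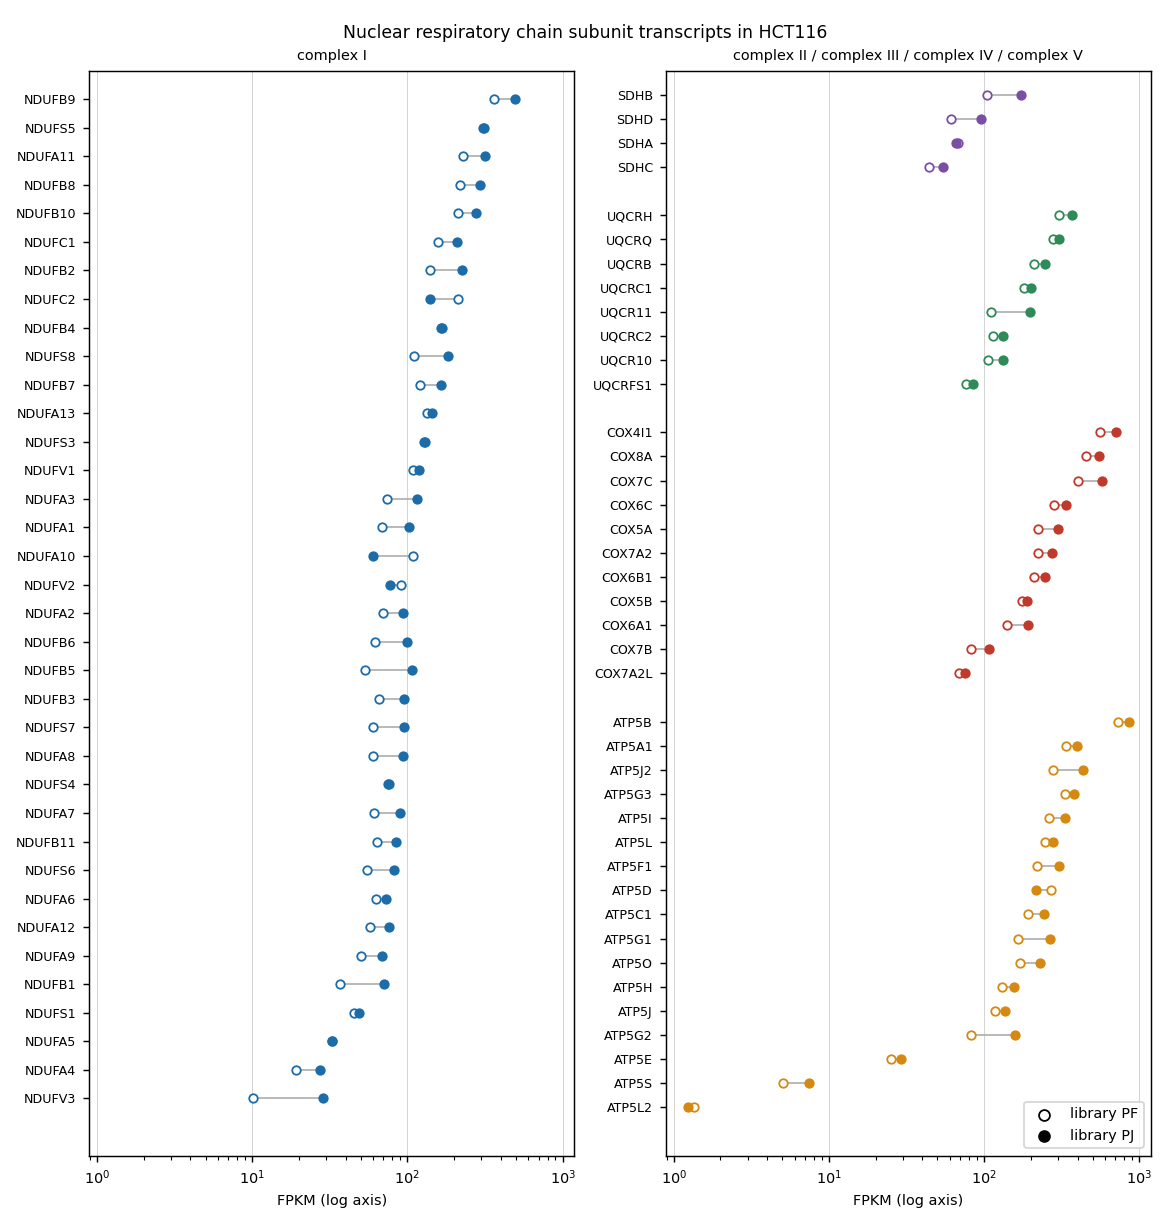
FPKM of the expressed genes, with 1 of the 77 not shown, on a log axis, ordered by mean within each complex; open circles are library PF, filled circles library PJ, and the line joins the 2 values of a gene. Most filled circles lie to the right of the open ones, NDUFA10, NDUFC2 and ATP5D are the clearest exceptions, and NDUFV3 (10.2 and 28.5 FPKM) has the widest gap.

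Complex I genes were read by position in the enzyme. NDUFV1, which carries the NADH site, was at 109 and 119 FPKM, and its iron-sulfur neighbour NDUFV2 at 90.5 and 77.2. NDUFS1, the largest core subunit, stood at 45.3 and 49.0 FPKM. NDUFS3 was at 128 and 130 FPKM, NDUFS7 at 60.1 and 94.5, and NDUFS8 at 111 and 182. Over the 7 nuclear core subunits, which carry the catalysis, the median of mean FPKM was 83.8, close to the 81.4 of the 29 accessory subunits. The order differed by library, with medians of 90.5 (core) and 69.6 (accessory) in PF, and 94.5 and 99.7 in PJ. Genes of the membrane arm (20 genes, median 141 FPKM) were higher than those of the matrix arm (16 genes, median 71.8). By library the medians were 127 and 142 against 60.4 and 76.7. The gap was larger than the SD between libraries of either median (10.5 and 11.6), but these SDs do not measure its error. The 4 highest genes of the complex, NDUFB9 (363 and 493 FPKM), NDUFS5 (311 and 306), NDUFA11 (227 and 315) and NDUFB8 (217 and 293), all encode accessory subunits of the membrane arm.

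The lowest complex I genes were NDUFV3, at 10.2 (bounds 9.15 to 11.2) and 28.5 FPKM (26.5 to 30.5), NDUFA4, at 19.2 (18.1 to 20.2) and 27.4 (25.8 to 28.9), and NDUFA5, at 32.9 and 32.6. NDUFV3 encodes a small accessory subunit beside the NADH site, and its libraries are far apart. NDUFA4 carries a complex I name although its product has since been placed with complex IV. Counted there, it lowers the median of complex IV to 130 FPKM. Its paralog NDUFA4L2, known as a hypoxia-induced gene, was at 0.293 and 0.114 FPKM.

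Complex II, succinate dehydrogenase, links the citrate cycle to the chain. SDHA, the flavoprotein that oxidises succinate, was at 68.3 and 65.6 FPKM, and the iron-sulfur subunit gene SDHB (chromosome 1, hg19 17345217 to 17380665) at 105 and 173. The membrane anchors SDHC and SDHD were at 43.9 and 60.9 FPKM in PF and at 54.7 and 95.6 in PJ. SDHB, SDHC and SDHD were higher in PJ with bounds apart, SDHA was nearly level, and SDHC was lowest in both libraries. SDHA stood above SDHD in PF and below it in PJ.

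Complex III genes formed the most even group after complex II. UQCRH, the hinge protein that contacts cytochrome c1, led at 302 and 370 FPKM, followed by UQCRQ at 278 and 305 and UQCRB at 209 and 246. The 2 large core proteins UQCRC1 and UQCRC2 were at 182 and 114 FPKM in PF and at 202 and 132 in PJ. UQCRFS1, the Rieske iron-sulfur protein, was lowest at 76.6 and 85.1 FPKM. UQCR10 stood at 106 and 132, and UQCR11 at 110 and 196. CYC1, the cytochrome c1 gene that completes the catalytic core but falls outside the naming rule, was at 320 and 420 FPKM, and CYCS, the mobile carrier cytochrome c, at 140 and 209.

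In complex IV each position with alternative genes was filled by the widely expressed one. COX4I1 (chromosome 16, hg19 85832239 to 85840650) was at 558 (bounds 550 to 578) and 712 FPKM (708 to 736), whereas COX4I2, the form known from lung and hypoxia, was at 0.00195 and 0.00258 with upper bounds of 0.193 and 0.201. COX8A was at 456 and 551 FPKM and COX8C at 0.208 and 0.0670. COX7A2 was at 221 and 274 FPKM and COX7A1, a muscle form, at 0.164 and 0.0928. No pair overlapped in either library.

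The same held for the other 3 pairs. COX6A1 was at 140 and 190 FPKM, and COX6A2, the heart and skeletal muscle form, was listed at 0 in both libraries. COX6B1 was at 210 and 247 FPKM and its testis paralog COX6B2 at 0.365 and 0.521 (upper bounds 0.854 and 0.991). COX7B was at 82.3 and 107 FPKM and COX7B2 at 0.486 and 0.338, with upper bounds of 1.06 and 0.90. Of 4 general muscle markers (ACTA1, CKM, MYH7 and DES) none reached 1 FPKM in both libraries, and their levels summed to 1.58 and 2.99 FPKM. In bulk RNA, fewer cells with a transcript and less of it per cell cannot be told apart. The plot of alternative complex IV genes shows the gap for each pair.

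**Figure D2:**
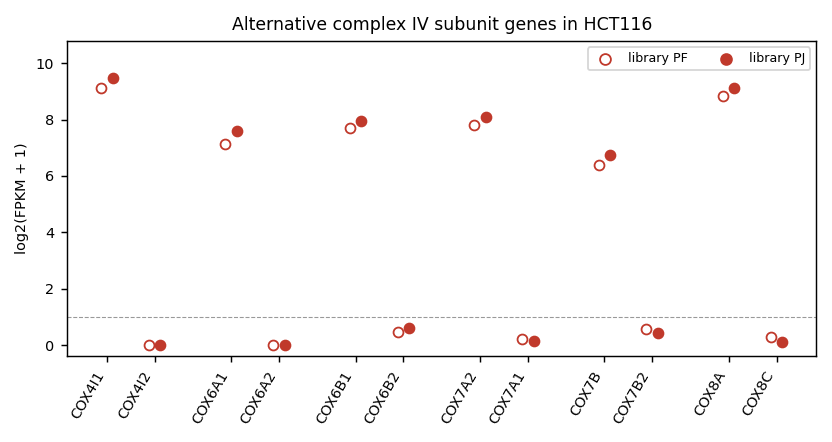
Levels of 6 pairs of alternative complex IV subunit genes as log2(FPKM + 1), open circles for library PF and filled circles for PJ; the dashed line is 1 FPKM. In each pair the first gene lies above 6 on this scale and the second below the line in both libraries, with COX6A2 at 0.

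Among complex IV genes with no tested partner, COX7C was at 401 and 572 FPKM, COX6C at 282 and 338, COX5A at 223 and 301, and COX5B at 176 and 188. COX7A2L, whose product joins complexes III and IV into supercomplexes, was the lowest expressed gene at 68.7 and 75.4. COX4I1, COX8A, COX7C and COX6C kept this order in PF, whereas in PJ COX7C stood above COX8A.

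ATP synthase genes held the highest and the lowest values among the 77 expressed genes. ATP5B, which encodes the catalytic beta subunit, was the highest of all 83 at 731 (bounds 726 to 745) and 859 FPKM (861 to 881). ATP5A1, for the alpha subunit, was at 338 and 398 FPKM. The stalk subunit genes of the F1 head were lower, with ATP5C1 (gamma) at 193 and 242, ATP5D (delta) at 271 and 217, and ATP5E (epsilon) at 25.2 and 29.2. The F1 head holds several copies of alpha and beta for each of the other subunits, and among the F1 genes those 2 were first in both libraries.

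The membrane ring of subunit c is encoded by 3 genes whose mature products are identical. ATP5G3 gave 333 and 377 FPKM, ATP5G1 166 and 265, and ATP5G2 82.1 and 159. ATP5G3 was first in both libraries, but its share of the summed level was 57.3% in PF and 47.1% in PJ, while that of ATP5G2 was 14.1% and 19.9%. The sum was 580 FPKM in PF and 801 FPKM in PJ. Of the other membrane and peripheral stalk genes, ATP5J2 was at 279 and 434 FPKM (with upper bounds of 1423 and 1490), ATP5I at 261 and 331, ATP5L at 245 and 278, and ATP5F1 at 220 and 303. The lowest were ATP5S, a factor outside the enzyme core, at 5.04 and 7.47 FPKM, and ATP5L2, an ATP5L-like gene, at 1.36 and 1.23.

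Several of these genes have pseudogenes with a high assigned level, so that their own values are uncertain. GENCODE release 29 names pseudogenes for 44 of the 83 genes, and for 16 of the 77 expressed genes the pseudogenes summed to more than 10% of the gene's FPKM in at least 1 library. ATP5E was the extreme case: ATP5EP2, its copy on chromosome 13 (hg19 28519343 to 28519727), was listed at 94.1 and 92.0 FPKM, above ATP5E itself, though against bounds of 38.4 to 47.3 and 40.5 to 49.9. COX6A1P2 was listed at 176 and 211 FPKM beside COX6A1 at 140 and 190, both outside their bounds. COX7CP1 was listed at 97.6 and 132 FPKM, far above its bounds (4.68 to 9.48 in PF), beside COX7C at 401 and 572. For NDUFA5 the pseudogenes summed to 34.4 and 45.6 FPKM, for UQCRFS1 to 45.0 and 49.4 (nearly all UQCRFS1P1), for NDUFV2 to 49.9 and 59.9, and for SDHA to 36.1 and 36.3. How fragments were divided between these genes and their copies was not tested. The rank of ATP5E below the other F1 genes carries this limit.

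**Figure D3:**
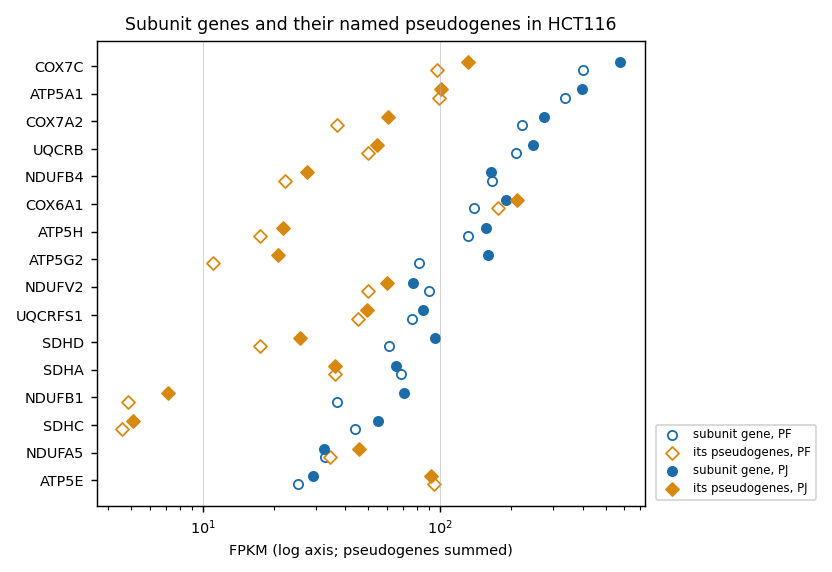
FPKM on a log axis of the 16 expressed subunit genes (circles) whose named pseudogenes (diamonds, summed) exceeded 10% of their level in at least 1 library; open symbols are library PF, filled symbols PJ. The diamonds lie to the right of the circles for ATP5E, COX6A1 and NDUFA5 in both libraries.

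Location overlaps are a second limit. For 27 of the 77 expressed genes the locus overlaps another entry at 1 FPKM or more in both libraries, for example NDUFA7 with RPS28, SDHD with TIMM8B, and ATP5J with GABPA, the gene of the GABP alpha subunit. Whether strand was used in counting is not given in the sources used here, and without it such neighbours cannot be separated. The genes were also short. The longest coding transcript had a median of 1263 bases over the 77, against 3376 over expressed protein-coding symbols, and was under 1000 bases for 31 of them. FPKM of short transcripts is less stable.

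Between the libraries, subunit genes were mostly somewhat higher in PJ and seldom far apart. Of the 77 genes, all of which averaged at least 1 FPKM, 68 were higher in PJ, or 88.3%, beside 65.8% of all 15736 symbols at that level. On the log2(FPKM + 1) scale, which understates changes of low genes, their log2 ratios, PJ over PF, had a median of 0.34, against 0.22 for all symbols. The middle 50% of the 77 ran from 0.15 to 0.51, against -0.17 to 0.60 for all symbols. All genes of complexes III and IV that entered this comparison were higher in PJ, with 31 of 37 in complex I, 3 of 4 in complex II and 15 of 17 in complex V. The whole distribution was shifted towards PJ by a median ratio of 1.19 (0.25 on the log2 scale), and with it divided out the median of the 77 was 0.10, and 47 of the 77 had a ratio above 1.19, beside 50% of all symbols.

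On this scale only NDUFV3 was at least 2-fold higher in PJ, 1 of 77, where 10.4% of all symbols were (with a pseudocount of 0.1 or none, NDUFB5 joined it and the count was 2), and none was at least 2-fold lower, where 5.22% were. At similar levels both shares were smaller: among 1686 protein-coding symbols in the level range that holds the middle 80% of the 77 genes, 5.16% were 2-fold higher and 1.78% 2-fold lower. The deposited bounds of PF and PJ were nevertheless apart for 64 of the 77, beside 62.7% of all symbols and 83.1% of the protein-coding symbols at similar levels. By their estimates 59 of the 64 were higher and 5 lower in PJ. NDUFB4, counted as lower, had bounds that were higher in PJ (147 to 161) than in PF (132 to 145). The bounds do not cover variation between cultures. With 1 library on each side none of these differences has a replicate check.

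The largest log2 ratios were those of NDUFV3 (1.40), NDUFB5 (0.99), ATP5G2 (0.95), NDUFB1 (0.92) and UQCR11 (0.83). NDUFB5 was at 53.4 and 107 FPKM, and NDUFB1 at 37.0 and 70.9, and both estimates lay above their bounds in each library. The smallest, with genes under a mean of 5 FPKM left out, were NDUFA10 (-0.86), NDUFC2 (-0.59), ATP5D (-0.32), NDUFV2 (-0.23) and SDHA (-0.06). NDUFA10, a membrane arm subunit gene on chromosome 2 (hg19 240831867 to 240964819), was at 109 (bounds 97.1 to 107) and 59.8 FPKM (53.3 to 61.1). NDUFC2, also of the membrane arm (chromosome 11, hg19 77779350 to 77791265), was at 212 FPKM (202 to 222) and 140 (132 to 148). Both were lower in PJ while 16 of the 20 genes of that arm were higher. After the shift was divided out, NDUFA10 was 2-fold lower (log2 ratio -1.10), 1 of 77 where 7.14% of all symbols were, and NDUFV3 stayed the single gene 2-fold higher, where 6.29% were.

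Core and accessory subunits of complex I differed in their medians. The 7 core genes had a median log2 ratio of 0.12, and 2 of the 7, NDUFS7 (0.64) and NDUFS8 (0.71), lay above the shift. The 29 accessory genes had a median of 0.44, and 21 of them lay above it. In ATP synthase, the F1 head had a median of 0.23 over 5 genes against 0.38 over the 10 other ATP synthase subunits (ATP5S and ATP5L2 not counted). These are medians over genes of 1 pair of libraries and were not tested.

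Mitochondrial genome genes of the same complexes went the other way. The 7 MT-ND genes of complex I were all at least 2-fold lower in PJ, from MT-ND1, at 5153 and 1567 FPKM, to MT-ND3, at 7923 and 3366. MT-CYB of complex III was at 3899 and 1615 FPKM, MT-CO1 of complex IV at 5569 and 3528, and MT-ATP6 of complex V at 11399 and 4440. MT-ATP8 was listed highest at 30550 and 10018 FPKM, far above its bounds of 2713 to 2802 and 1163 to 1219, and MT-ND5 was lowest at 2394 and 758. The median log2 ratios, nuclear against mitochondrial, were 0.43 and -1.49 in complex I, 0.23 and -1.27 in complex III, 0.31 and -1.04 in complex IV, and 0.26 and -1.48 in complex V. The nuclear median exceeded the mitochondrial one by 1.92, 1.5, 1.35 and 1.74. Summed over the 13 genes, mitochondrial FPKM was 122103 in PF and 49192 in PJ, and that of nuclear protein-coding symbols 444312 and 522631. Not one of the 13 mitochondrial genes had estimates within its bounds in both libraries. The plot of library differences by complex sets the groups side by side.

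**Figure D4:**
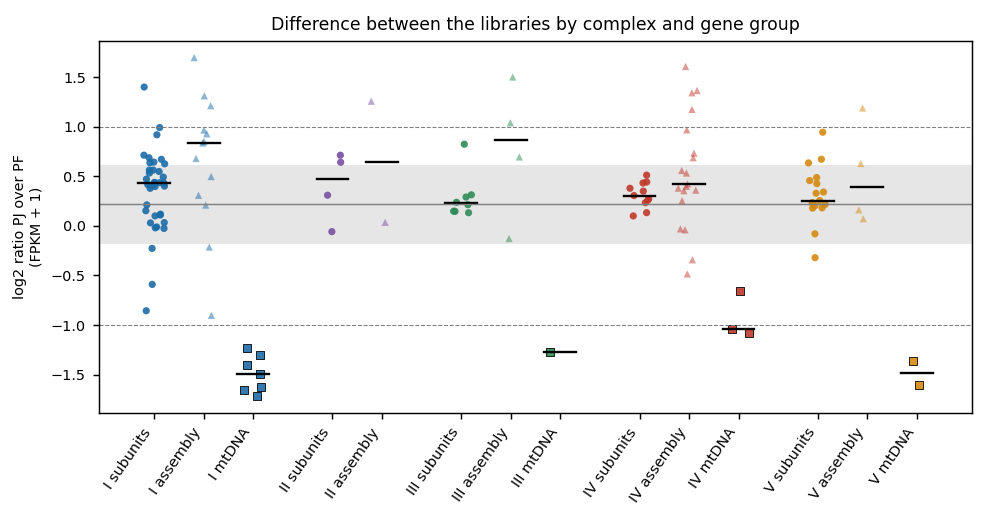
Log2 ratio of PJ over PF (FPKM + 1) for each nuclear subunit gene (circles), assembly factor gene (triangles) and mitochondrial genome gene (squares) by complex; the horizontal position within a column has no meaning, bars are medians, the grey band is the middle 50% of all symbols with its median as a line, and dashed lines mark 2-fold. All squares lie below the band and all circles of complexes III and IV above 0.

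Assembly factors help put the complexes together without being part of them. Of 42 assembly factor genes, all expressed, 11 had a PJ level at least 2-fold above PF and none 2-fold below, with a median log2 ratio of 0.59. Among 8683 protein-coding symbols between the lowest and highest level of the list, 10.6% were 2-fold higher and 3.54% 2-fold lower. That range ran from 4.74 to 229 FPKM, its top set by the inhibitor gene ATPIF1, which was counted with the factors. These symbols had a median of 19.2 FPKM, so they shared the range but were not matched in level. With the shift divided out, 7 of the 42 were 2-fold higher and 1, NDUFAF5, was 2-fold lower. Of the 8683 symbols, 495 were then 2-fold higher and 483 2-fold lower. The assembly factors were lower in level than the subunits, with a median of mean FPKM of 34.4.

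For complex I, 3 of 13 factors were 2-fold higher: NDUFAF3 (29.6 and 98.4 FPKM), NDUFAF1 (7.79 and 20.9) and TIMMDC1 (34.2 and 80.6, the latter gene outside its bounds). NDUFAF5, an enzyme that modifies NDUFS7, was lower in PJ at 34.2 and 17.8, also outside its bounds. NUBPL, an iron-sulfur cluster factor, was the lowest of the list at 6.18 and 5.19. For complex II, SDHAF1 was at 6.44 and 16.8 FPKM (outside its bounds) and SDHAF2 at 38.1 and 39.1. For complex III, UQCC was at 16.1 and 47.3, BCS1L, which inserts the Rieske protein, at 20.4 and 43.0, TTC19 at 42.8 and 39.1, and LYRM7 at 3.44 and 6.20.

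For complex IV, 4 of 19 factors were 2-fold higher: COA6 (16.4 and 51.9 FPKM), COA3 (19.0 and 50.6), COA4 (34.4 and 88.8) and the copper chaperone SCO2 (23.0 and 53.3). Its paralog SCO1 was nearly level at 40.8 and 39.9. COX16 had the highest mean of the list, with 62.5 and 74.8 (outside its bounds; COA4 and COA1 were above it in PJ), and COX19 the lowest at 4.03 and 5.44. For complex V, TMEM70 was at 42.2 and 97.6 FPKM (outside its bounds), ATPAF2 at 19.6 and 30.8, and ATPIF1, the inhibitor of ATP hydrolysis, at 223 and 235. The calls for SDHAF1 and TMEM70, the only ones in their complexes, rest on estimates outside their bounds, and with the shift divided out TMEM70 was under 2-fold (log2 ratio 0.95).

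Electron carriers and supercomplex factors outside the naming rule were counted separately. Of 8 such genes 7 were expressed and none was 2-fold apart, where 10.4% of all symbols were 2-fold higher and 5.22% lower. Their median log2 ratio was 0.39. ETFDH, the electron transfer flavoprotein dehydrogenase, was lowest of the expressed genes at 6.86 and 12.1 FPKM. Regulators of mitochondrial gene expression were nearer level, with 9 of 10 expressed, a median of 0.12 and 2 above the shift, where 50% of all symbols were. Of these 9, only ESRRA (17.9 and 40.7 FPKM, outside its bounds) was 2-fold higher, near the 10.4% of all symbols. With the shift divided out ESRRA was under 2-fold (log2 ratio 0.90). NRF1 was at 15.8 and 14.5 FPKM, GABPA at 8.88 and 7.55, TFAM, which packages mitochondrial DNA, at 56.2 and 59.9, and YY1, the highest of the list, at 66.5 and 72.7. The coactivator gene PPARGC1A (PGC-1alpha) was at 0.0187 and 0.00938 FPKM.

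Across the 77 expressed genes log2(FPKM + 1) in PF and PJ correlated with Pearson's r = 0.971. This is a correlation across genes, and genes are not independent replicates. The epithelial label was checked against 5 markers (KRT8, KRT18, KRT19, EPCAM and CDH1), all expressed in both libraries, whose levels summed to 1518 and 896 FPKM. Of 4 fibroblast markers only COL1A1 passed, and none of 4 immune or 3 endothelial markers did, with sums of 7.38 and 2.95, 0.442 and 0.130, and 0.213 and 0.131 FPKM. CDH1 was at 21.9 and 1.80 FPKM and KRT8 at 760 and 280. EPCAM and KRT18 were also lower in PJ, and KRT19 was slightly higher (306 and 325). The epithelial list thus also differed between the libraries, and its part in the differences of the subunit genes was not tested.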

How the data were processed

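RNA of HCT116 was sequenced in 2 libraries. Reads were processed with TopHat2 2.0.8b, TopHat and Cufflinks on hg19, per the submitters' processing notes. No annotation release is given in the sources used here. For each gene the authors deposited FPKM with 95% bounds and a status, per the file headers. Depth is unknown. Status FAIL (23 entries in PF, 20 in PJ) was treated as missing, entries sharing a symbol were summed, and bounds are those of the entry with the higher level. Expressed means 1 FPKM or more in both libraries. Ratios are log2 of PJ over PF with a pseudocount of 1, over symbols averaging at least 1 FPKM, also with the median ratio divided out. Gene coordinates are hg19 from the tables, starts counted from 1; gene types, transcripts and pseudogene names came from GENCODE release 29 by identifier, promoters from RefSeq (GRCh38.p14) by current symbol.

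The genes and lists were chosen with earlier results of these data known. Named by rule were the highest 4 and lowest 3 genes of each complex, the paralog pairs, the SDH and ATP5G genes, the 5 largest and 5 smallest ratios at a mean of 5 FPKM or more, and the highest and lowest of each list; other genes were named after their values were seen. The script that counts 2-fold differences was tested on simulated data. Python 3.11.15, numpy 2.4.6, pandas 2.3.3 and matplotlib 3.10.9 were used. Alternatives were other thresholds, pseudocounts, filters, scalings and each library alone. The values of 1 complex I gene are not reported here. The normal colon libraries that the design text mentions were not used here.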

Additional observations from a re-analysis of the deposited data

How the results depend on the processing

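Of 190 recomputed values 167 stayed within the spread between libraries, within 1.5 times for counts, or within 0.1 for a log2 ratio. Scaling moved most of the others. Some of the 167 could not move, so their count does not measure stability. No entry of the subunit genes had status FAIL, and some settings reached only part of the complexes. Dividing out the median ratio nearly cancels in the nuclear minus mitochondrial differences. No result carries a test. As a share of the summed FPKM of nuclear protein-coding symbols, in the scale of CPM, the median levels of complexes I to V were 168, 150, 355, 339 and 449. These values counted as moved because the unit changed, and the order of the complexes stayed the same. With the median ratio divided out, the median log2 ratio of all subunit genes was 0.10, with 0.19 in complex I, 0.23 in II, -0.019 in III (a change of sign), 0.061 in IV and 0.011 in V. The same step gave 1 gene 2-fold lower, NDUFA10, 7 assembly factors 2-fold higher and 1 lower, and an assembly factor median of 0.36 (0.47 with a pseudocount of 5). With a pseudocount of 0.1, or none, 2 subunit genes were 2-fold higher, NDUFV3 and NDUFB5. The complex IV median was 247 FPKM without unexpressed genes. It was 130 with NDUFA4 added and 83.5 without genes whose pseudogenes exceed 10% of their level, both with unexpressed genes still counted. Leaving out the genes with such pseudogenes left SDHB alone in complex II, at 139 FPKM and a log2 ratio of 0.71. The settings on NDUFA4, pseudogenes, ATP5S and ATP5L2, no pseudocount and assembly factors were chosen after seeing the data. Each library alone gave 77 expressed genes without PF and 77 without PJ. Mitochondrial genome genes could not be recomputed within their own bounds, since none qualified. No paired analysis was possible because there is a single group.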
